A study of Mus musculus with 8 samples.

Results

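Hsp90aa1, Dnaja1, Dnajb1, Dnajb4, Bag3 and Chordc1 were 6 of the 309 genes listed as differing between Efhd2f/f Vil1cre/+ and Efhd2f/f intestinal epithelial cells (IECs) of the mouse colon on day 0. They encode cytosolic Hsp90 and proteins that work with Hsp90 or Hsp70. Each gene was found by its symbol in the day 0 table, and 6 of 6 were present. All of them were at higher values in Efhd2f/f Vil1cre/+ IECs, by 2.16-fold to 4.33-fold in the ratio of group means. The members were chosen from genes that had passed this very contrast, so their day 0 difference is given below as a description, without a test. None of the 6 genes was among the 128 genes listed on day 7.

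The series holds 8 libraries, 2 for each genotype and day. Day 0 IECs came from mice without DSS (dextran sulfate sodium, a polymer that induces colitis), and day 7 IECs from mice given DSS. Mice of both genotypes carried floxed Efhd2 alleles, in which loxP sites flank an exon, and only the Efhd2f/f Vil1cre/+ mice carried Cre recombinase driven by the promoter of Vil1 (villin), which is active in the intestinal epithelium. The methods of the study give mice of both sexes aged 8 to 10 weeks, and the labels do not give the sex behind a library. IECs were released from the opened colon with DTT and EDTA and were not sorted, so the RNA can include that of other colonic cells. Values are normalized counts, which are read counts per gene scaled between libraries. Day 0 libraries are named by the numbers in the table, 51 and 53 for Efhd2f/f Vil1cre/+ and 50 and 52 for Efhd2f/f. Nothing in the labels says that the libraries of a group came from separate mice, so their spread may be technical. The depth of the libraries is unknown, since the tables hold only part of the genes.

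Hsp90 and Hsp70 are ATP-driven chaperones that fold and hold client proteins such as kinases and steroid receptors. J-domain proteins (the DnaJ or Hsp40 family) bring clients to Hsp70 and stimulate its ATP hydrolysis, BAG proteins release the nucleotide so that the client can leave, and further cochaperones pass clients to Hsp90 or tune its cycle. Many of these genes respond to heat and other protein-damaging stress through the transcription factor Hsf1, which binds heat-shock elements, alternating GAA and TTC units set 2 bases apart. The colonic epithelium is renewed continuously and keeps its secretory and absorptive cells supplied with newly folded proteins.

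The promoters of the members were searched for such elements, because the members are known mainly as heat-responsive genes. Windows from 250 bases before to 50 bases after each RefSeq start site (GRCm38.p6) were found for 5 of the 6 members: Dnaja1, Dnajb1, Dnajb4, Bag3 and Chordc1. GAANNTTC and TTCNNGAA, which read the same on both strands and can overlap each other, were counted as an element of 2 units. Of these 5 members, 4 held at least 1 such element, against 17.0% of the 27025 genes in the promoter table. The share was 25.0% of the 60 matched genes listed as higher in Efhd2f/f Vil1cre/+ IECs and 19.0% of the 137 matched genes listed as lower. Those 60 include the 5 members, which were 4 of the 15 genes with an element. A gene counted if any of its windows matched, which favours genes with several windows, such as Dnaja1 with 3. Taken by window, 15.1% of all 32851 windows held an element. The stretches of 30 bases below, printed along the strand of the gene, show how different these matches were, with the element in capitals.
Dnaja1, chr4:40722333-40722362, plus strand: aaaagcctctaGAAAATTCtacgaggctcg
Dnajb4, chr3:152193841-152193870, minus strand: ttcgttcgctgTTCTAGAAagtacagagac
Bag3, chr7:128523603-128523632, plus strand: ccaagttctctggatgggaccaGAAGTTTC
Chordc1, chr9:18292260-18292289, plus strand: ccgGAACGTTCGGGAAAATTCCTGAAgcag

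In Chordc1, 4 overlapping pairs of units formed a run of 23 bases across the start site, from position -4 to 19, where the first transcribed base is 1 and the base before it is -1. A second pair, TTCCGGAA, lay at positions 34 to 41. The Dnaja1 element lay at positions -124 to -117, in 1 of the 3 start-site windows of that gene. In Dnajb4 the element lay at -14 to -7 of the second of 2 start sites. The Bag3 element lay downstream of the start, at 43 to 50. Both Dnajb1 windows held no match, which says only that these letters are not in those windows. With 3 units in a row (GAANNTTCNNGAA or TTCNNGAANNTTC), the count was 1 of 5 members, Chordc1. The shares were 0.662% of all genes in the table and 3.33% of the 60 matched genes listed as higher, where Chordc1 was 1 of 2 matches. When the bases after the start site were left out, 2 of 5 members (Dnaja1 and Dnajb4) held a pair. This compares with 14.5% of all genes and 21.7% of those 60, which again include the members. Elements were not particular to the members. Among the other listed chaperone genes described below, Hspa1a, Hspa1b and Fkbp4 held 1 element each. Each Hsph1 window held 3, including a run of 3 units, whereas Stip1 and Hspa4l held 0. No window was found for Hspa8, and Hspa5, Hyou1 and Banp were not searched. A match is a description of the sequence and not a bound site.

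The targeted gene was examined first. Efhd2 was at 555.5 and 713.3 normalized counts in the Efhd2f/f Vil1cre/+ libraries 51 and 53 and at 2663 and 2686 in the Efhd2f/f libraries 50 and 52, so both labelled knockout libraries were low. Among the 309 listed genes, 99 were higher in Efhd2f/f Vil1cre/+ IECs and 210 were lower. Both Efhd2f/f Vil1cre/+ libraries lay above both Efhd2f/f libraries for 6 of 6 members, beside 32.0% of all listed genes. The difference on the log2(normalized count + 1) scale was above 1 for 6 of 6 members, beside 31.7% of all listed genes. Nothing is read from these shares, since the members were chosen from the same contrast.

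Hsp90aa1 (ENSMUSG00000021270) encodes the stress-inducible cytosolic Hsp90 alpha. It lies on the minus strand of chromosome 12 (110690605 to 110702728, GRCm38), and its longest coding transcript in GENCODE has 11 exons. Its normalized counts were 8998 and 6829 in Efhd2f/f Vil1cre/+ libraries 51 and 53, and 1688 and 1965 in Efhd2f/f libraries 50 and 52. The genotypes did not overlap, and the lower knockout library was 3.48 times the higher control library. The means were 7914 ± 1534 and 1826 ± 196 (SD, n = 2 each), a log2 difference of 2.11 (standard error 0.40, limma fit over all listed genes). The standard errors given here are moderated: limma draws the variance of each gene toward that of all listed genes. The standard errors are therefore not the spread of the gene alone. The listed genes had passed this contrast, so the variance they share is that of selected genes. The Hsp90aa1 difference was the largest among the members, and 19 listed genes had a larger positive one.

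Dnaja1 and Dnajb1 encode J-domain partners of Hsp70, of the type A and type B structural classes. Dnaja1 (ENSMUSG00000028410, chromosome 4, 40722150 to 40737149, plus strand) had 6531 and 5522 normalized counts in libraries 51 and 53, and 1296 and 1610 in libraries 50 and 52. The Dnaja1 means were 6027 ± 713 and 1453 ± 222 (SD, n = 2 each), a ratio of 4.15 and a log2 difference of 2.06 (standard error 0.39). Its values went with those of Hsp90aa1 in every library: per kb of gene length, Dnaja1 stood at 0.331, 0.368, 0.350 and 0.373 of Hsp90aa1 in libraries 51, 53, 50 and 52, and this ratio overlapped between the genotypes.

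Dnajb1 (ENSMUSG00000005483, chromosome 8, 83608193 to 83612653, plus strand) had 4414 and 4372 normalized counts in libraries 51 and 53, and 802.5 and 1601 in libraries 50 and 52. The knockout libraries were almost equal, whereas the control libraries differed 1.99-fold, the widest spread within a genotype among the members. The means were 4393 ± 29.8 and 1202 ± 564 (SD, n = 2 each), a ratio of 3.66 and a log2 difference of 1.95 (standard error 0.45). The size of the Dnajb1 difference therefore leaned on which control library was used: it was 1.46 on the log2 scale without library 50 and 2.45 without library 52.

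Bag3, Chordc1 and Dnajb4 showed smaller differences. Bag3 encodes a BAG-domain protein that releases nucleotide from Hsp70 and couples it to small heat-shock proteins and selective autophagy. Bag3 (ENSMUSG00000030847, chromosome 7, 128523616 to 128546981, plus strand) was at 1074 and 914.2 normalized counts in libraries 51 and 53, and at 407.7 and 449.3 in libraries 50 and 52. Its means were 994.3 ± 113 and 428.5 ± 29.5 (SD, n = 2 each), a ratio of 2.32 and a log2 difference of 1.21 (standard error 0.39).

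Chordc1 encodes an Hsp90-binding protein with zinc-binding CHORD domains. Chordc1 (ENSMUSG00000001774, chromosome 9, 18292125 to 18317442, plus strand) was at 1319 and 1005 normalized counts in libraries 51 and 53, and at 513.5 and 523.2 in libraries 50 and 52. The control libraries were close together, and both knockout libraries lay well above them. Its means were 1162 ± 222 and 518.4 ± 6.86 (SD, n = 2 each), a ratio of 2.24 and a log2 difference of 1.15 (standard error 0.39). Without library 51 the log2 difference was 0.95.

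Dnajb4 encodes a type B J-domain protein related to that of Dnajb1. Dnajb4 (ENSMUSG00000028035, chromosome 3, 152178511 to 152210302, minus strand) was the member with the lowest values, at 406.5 and 372.7 normalized counts in libraries 51 and 53 and at 196 and 164.1 in libraries 50 and 52. The genotypes did not overlap. Its means were 389.6 ± 23.9 and 180 ± 22.6 (SD, n = 2 each), a ratio of 2.16 and a log2 difference of 1.11 (standard error 0.39). It was the member nearest to the listing threshold of a 2-fold change. The listed gene just past that threshold, Kdelc2, had a log2 difference of 0.99 on the scale used here, and genes outside the threshold are not in the table.

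**Figure D1:**
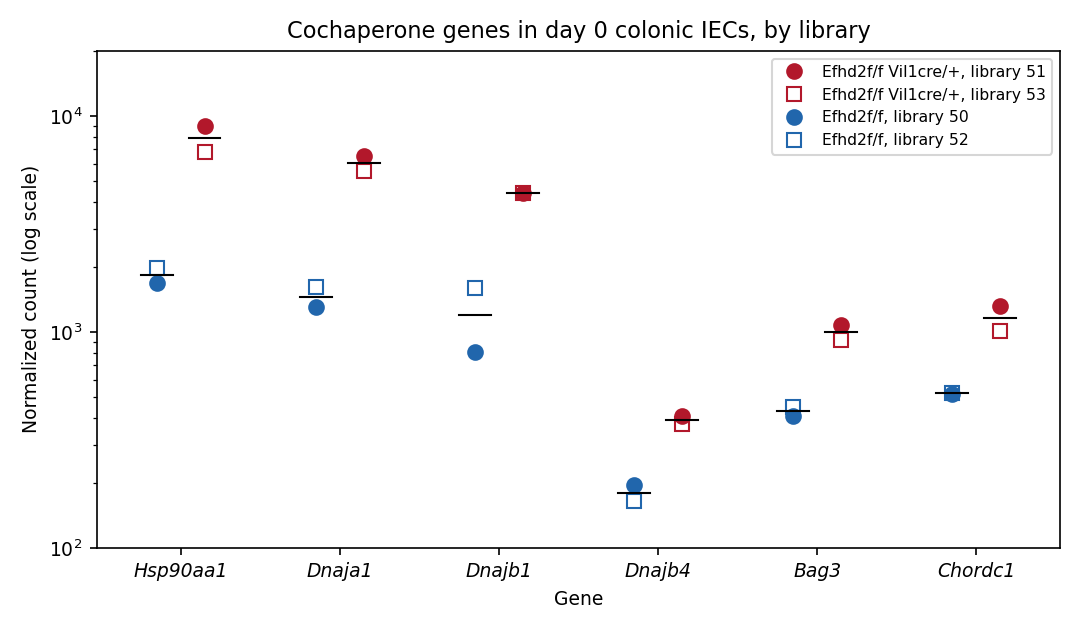
Normalized counts (log axis) of the 6 members in the 4 day 0 libraries, with a bar at each group mean (n = 2). Every red point (Efhd2f/f Vil1cre/+) lies above both blue points (Efhd2f/f) of its gene, and Dnajb1 has the widest gap between control libraries (802.5 and 1601).

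The members thus fell into 2 tiers by size of difference. Taking every knockout library over every control library, the ratios ran from 3.48 to 5.33 for Hsp90aa1, from 3.43 to 5.04 for Dnaja1 and from 2.73 to 5.50 for Dnajb1. For Bag3 they ran from 2.04 to 2.64, for Chordc1 from 1.92 to 2.57 and for Dnajb4 from 1.90 to 2.48. The ranges of the first 3 genes did not overlap those of the other 3, although the gap between Dnajb1 and Bag3 was narrow. Within each tier the ranges overlapped, so no order within a tier stands out from the spread of the libraries. With libraries rescaled to equal totals of the listed genes, the direction held for 6 of 6 members, but each log2 difference shifted by about -0.61, which left Bag3 at 0.60, Chordc1 at 0.54 and Dnajb4 at 0.50. Scaling by the median ratio over the listed genes shifted each the other way, by 1.12, which put Dnajb4 at 2.23 and Hsp90aa1 at 3.22. The median log2 difference of the members was 1.58, beside 1.45 for the 99 listed genes that were higher and -1.17 for all listed genes.

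The similarity of the profiles was measured as the Euclidean distance between centred log2(normalized count + 1) values over the 4 day 0 libraries. Hsp90aa1 and Dnaja1 were the closest pair (0.138), followed by Bag3 and Chordc1 (0.15). Dnajb1 was nearer to Dnaja1 (0.519) and Hsp90aa1 (0.631) than to Bag3, Chordc1 and Dnajb4 (0.971 to 1.22). Outside the members, the listed genes nearest to the mean profile of the 6 were Hs3st1, a heparan sulfate sulfotransferase (0.226), Hspa8, the constitutive cytosolic Hsp70 (0.258), Thbs4, a thrombospondin (0.297), Gm15542 (0.307) and Gm17300 (0.312). Taken gene by gene, the nearest listed gene of both Bag3 (0.122) and Chordc1 (0.116) was Stip1, which encodes the adaptor that joins Hsp70 to Hsp90. That of Dnajb4 was Kdelc2 (0.171), that of Dnajb1 was Gm37969 (0.346), and Hsp90aa1 and Dnaja1 were nearest to each other. These distances rest on 4 libraries and on genes selected for the same contrast, and they carry no test.

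Levels were compared between genes as normalized counts per kb of the deposited gene length, which equals the union of the GENCODE exons for each of the 6 genes. In Efhd2f/f Vil1cre/+ libraries 51 and 53 the order was Hsp90aa1 (2289 and 1737 per kb), Dnajb1 (1378 and 1365), Dnaja1 (756.9 and 639.9), Bag3 (419.4 and 356.8), Chordc1 (175.9 and 134) and Dnajb4 (46.4 and 42.5), and no neighbours in that order overlapped. In Efhd2f/f libraries 50 and 52 the levels were 429.3 and 499.8 per kb for Hsp90aa1, 250.5 and 499.5 for Dnajb1, 150.1 and 186.5 for Dnaja1, 159.1 and 175.4 for Bag3, 68.5 and 69.8 for Chordc1, and 22.4 and 18.7 for Dnajb4. There, Hsp90aa1 overlapped Dnajb1, and Dnaja1 overlapped Bag3. By the deposited length, the Bag3 level was thus like that of Dnaja1 in control IECs and lower than it in Efhd2f/f Vil1cre/+ IECs. The length used mattered, most for Dnajb4 and Dnaja1. Over the longest coding transcript, the mean control level was 258.4 instead of 168.3 per kb for Dnaja1 and 73.1 instead of 20.5 per kb for Dnajb4. It was 556.6 instead of 464.5 for Hsp90aa1 and 89.5 instead of 69.1 for Chordc1. That of Bag3, which has 1 transcript, stayed at 167.3, so over that length Dnaja1 stood above Bag3 in the controls too.

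Because the members differed by unequal factors, the make-up of the group differed between genotypes. Summed over the members, normalized counts came to 22743 and 19016 in libraries 51 and 53 and to 4903 and 6312 in libraries 50 and 52. This was 8.85% and 9.27% of the sum over all listed genes in the knockout libraries, and 3.26% and 4.23% in the control libraries. Of the sum of per kb levels, Hsp90aa1 took 45.2% and 40.6% in libraries 51 and 53, against 39.8% and 34.5% in libraries 50 and 52. Bag3 took 8.28% and 8.35% against 14.7% and 12.1%, and Chordc1 took 3.47% and 3.14% against 6.34% and 4.81%. The shares of Bag3 and Chordc1 were therefore lower in both knockout libraries although their levels were higher. The share of Dnajb1 (27.2% and 31.9% against 23.2% and 34.5%) overlapped between the genotypes.

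The other chaperone genes were taken from 9 lists with 135 genes in all, which were written with earlier results of these data known. Of the 135 genes, 10 were listed on day 0, all of them higher in Efhd2f/f Vil1cre/+ IECs, with a median log2 difference of 1.21 and a range from 1.01 to 4.91. The other 125 were not listed, which says only that they did not pass the thresholds of the table. Of 38 other DnaJ genes and 10 other BAG and Hsp70 exchange factor genes, 0 were listed. Likewise 0 of 9 small heat-shock protein genes, 0 of 13 genes of mitochondrial chaperones and the TRiC chaperonin, and 0 of 6 genes of heat-shock factors and their binding protein were listed. Only 309 genes were listed on day 0, and the number of genes examined is not known here. No share over all genes can therefore be set beside these counts, and nothing is read from them. In these lists no gene can be given a level or a test, because its values are not in the table.

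Among the Hsp70 partners, 3 genes differed more than any member did and 2 did not. Of 11 Hsp70 and Hsp110 genes, 5 were listed. The inducible Hsp70 genes Hspa1a (4709 and 4018 normalized counts in libraries 51 and 53, 268.7 and 76.7 in libraries 50 and 52) and Hspa1b (13325 and 9581, 936.2 and 205) had log2 differences of 4.91 (standard error 0.59) and 4.68 (standard error 0.67). These near-identical paralogs share sequence, so the split of reads between them is uncertain. Hsph1, an Hsp110 that acts as a nucleotide exchange factor for Hsp70, was at 5148 and 4081 against 474.3 and 430, a log2 difference of 3.34. Hspa8 was at 27983 and 23360 against 9670 and 9947 (1.38), and Hspa4l, another Hsp110, was at 1427 and 940 against 494.9 and 513.4 (1.20). The log2 differences of Bag3, Chordc1 and Dnajb4 were of the size of those of Hspa8 and Hspa4l, whereas Hspa1a, Hspa1b and Hsph1 stood above all 6 members.

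Of 20 other Hsp90 and Hsp90 cochaperone genes, 2 were listed. Stip1 was at 2076 and 1573 normalized counts in libraries 51 and 53 and at 739.9 and 835.8 in libraries 50 and 52 (log2 difference 1.20). Fkbp4, an Hsp90-bound peptidyl-prolyl isomerase of steroid receptor complexes, was at 4315 and 3571 against 1484 and 2213 (1.11). Both were of the size seen for Chordc1. Of 20 genes of endoplasmic reticulum chaperones and the unfolded protein response, 2 were listed, the luminal Hsp70 gene Hspa5 (10527 and 8304 against 3500 and 4553, log2 difference 1.23) and its partner Hyou1 (2150 and 1788 against 861.4 and 1097, 1.01). Of 15 other heat-inducible genes, 3 were listed, which were Fkbp4, Hspa8 and Banp, the last at 452.1 and 370.8 against 231.3 and 162 (1.08).

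**Figure D2:**
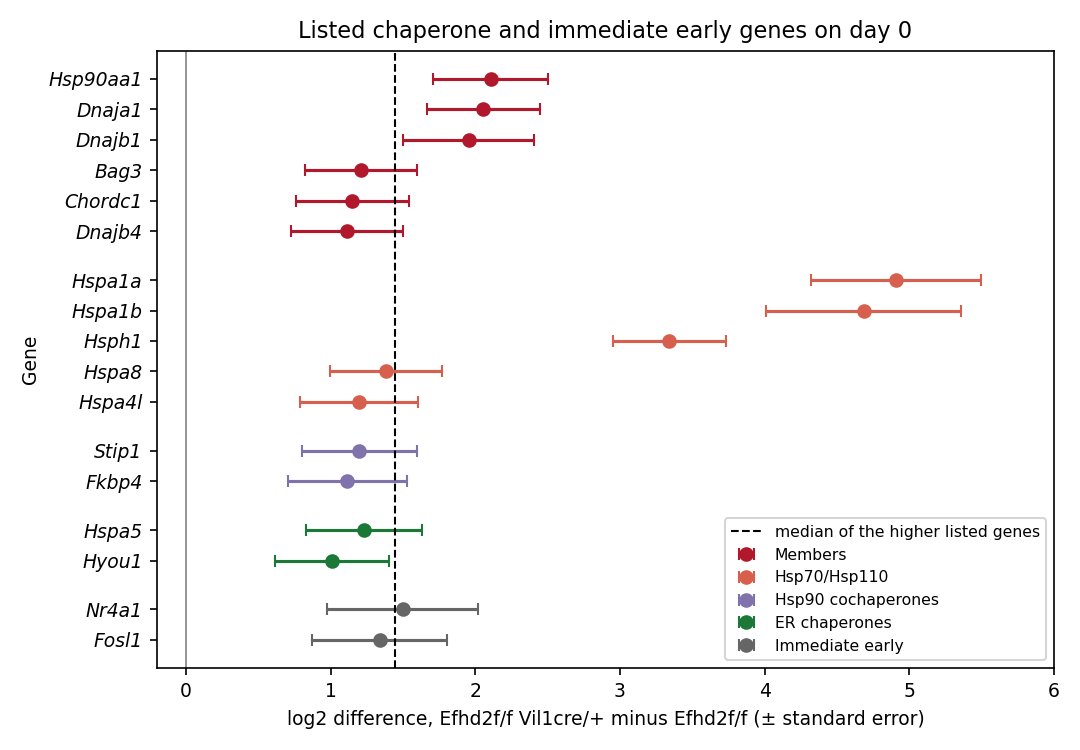
Log2 difference between genotypes (points, with the moderated limma standard error as bars) for the 6 members and for listed genes of the Hsp70, Hsp90 cochaperone, endoplasmic reticulum (ER) chaperone and immediate early lists. Hsp90aa1, Dnaja1 and Dnajb1 lie near 2 and Bag3, Chordc1 and Dnajb4 near the low end, below the dashed median of the 99 higher listed genes (1.45), and Hspa1a, Hspa1b and Hsph1 lie above every member.

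The libraries of a genotype also differed from each other. Library 51 was above library 53 for 6 of 6 members, by 1.01-fold (Dnajb1) to 1.32-fold (Hsp90aa1), beside 41.1% of all listed genes and 57.6% of the 99 higher ones. Library 52 was above library 50 for 5 of 6 members, the exception being Dnajb4 (0.837), beside 35.3% of all listed genes and 70.7% of the 99 higher ones. The count for libraries 50 and 52 was near that of the other higher genes, and the count for libraries 51 and 53 depended on the scaling. With libraries rescaled to equal totals of the listed genes, library 51 was above library 53 for only 2 of 6 members, Hsp90aa1 and Chordc1. It was so for 20.4% of all listed genes and 26.3% of the 99 higher ones. Library 52 was above library 50 for 5 of 6 members, beside 35.9% and 72.7%. With the median ratio over the listed genes both counts were 6 of 6. The shares were then 57.0% (51 over 53) and 60.2% (52 over 50) of all listed genes, and 77.8% and 82.8% of the higher ones. In the controls, the inducible Hsp70 genes went the opposite way from Dnajb1: library 52 was at 0.286 of library 50 for Hspa1a and at 0.219 for Hspa1b, while it was at 1.99 for Dnajb1. The immediate early genes Nr4a1 (2393 and 2736 normalized counts in libraries 51 and 53, 549.6 and 1490 in libraries 50 and 52) and Fosl1 (151 and 163.3, 42.1 and 89.7), which are transcribed soon after a cell is stimulated, went the same way as Dnajb1 in the controls. They were 2 of 27 immediate early genes on the list, both higher in Efhd2f/f Vil1cre/+ IECs, with log2 differences of 1.50 and 1.34. Their part in the difference of the members was not tested.

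**Figure D3:**
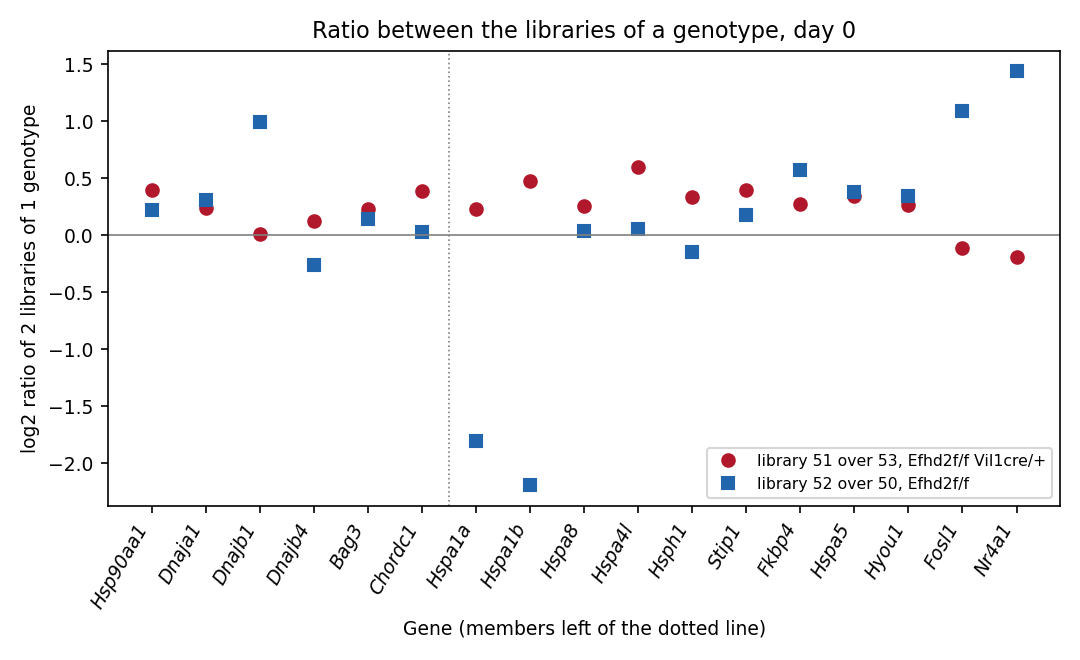
Log2 ratio between the 2 libraries of a genotype for the members (left of the dotted line) and for other listed chaperone and immediate early genes, with circles for library 51 over 53 and squares for library 52 over 50, in the deposited scaling. In the controls Dnajb1, Fosl1 and Nr4a1 are higher in library 52, and Hspa1a and Hspa1b are higher in library 50.

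Near-identical copies of 2 members were listed beside them. Processed pseudogenes are copies of a spliced transcript inserted elsewhere in the genome. Against all GENCODE transcripts, Hsp90aa1 had 3 such copies and Dnaja1 had 3 at 95% identity or more over at least 90% of the copy and 500 bases, and Dnajb1, Dnajb4, Bag3 and Chordc1 had none. Of these 6 copies, 2 were in the day 0 table and neither was in that of day 7. Gm12346 (chromosome 11, 77293444 to 77295898, plus strand) matches Hsp90aa1 at 99.5% identity over 2255 bases, and Gm15542 (chromosome 7, 140890887 to 140892080, plus strand) matches Dnaja1 at 99.4% over 1194 bases.

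Gm12346 was at 103.4 and 83.3 normalized counts in libraries 51 and 53 and at 23.5 and 20.7 in libraries 50 and 52, a log2 difference of 2.02 (standard error 0.39). This was 1.15%, 1.22%, 1.39% and 1.05% of Hsp90aa1 in libraries 51, 53, 50 and 52, so the copy kept nearly the same proportion to its parent in both genotypes. Gm15542 was at 185.5 and 154.7 in libraries 51 and 53 and at 43.1 and 69.2 in libraries 50 and 52, a log2 difference of 1.62 (standard error 0.42). Its share of Dnaja1 was 2.84% and 2.80% in the knockout libraries and 3.32% and 4.30% in the controls. Outside the members, Gm12346 was also the listed gene nearest in profile to Hsp90aa1 (distance 0.300), and for Dnaja1 it was Gm3608 (0.290). Whether reads of the parent genes were counted for the copies was not tested, and the values of all 4 genes are uncertain to that extent. Adding each copy to its parent left the log2 difference at 2.11 for Hsp90aa1 and 2.04 for Dnaja1.

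**Figure D4:**
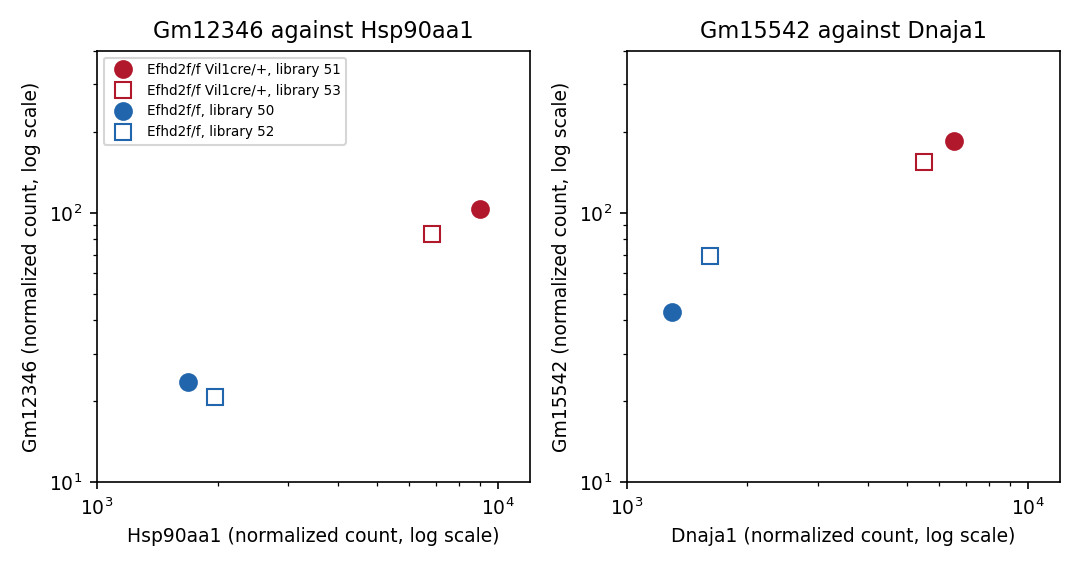
Normalized counts (both axes log) of the pseudogene Gm12346 against Hsp90aa1 and of Gm15542 against Dnaja1, 1 point per day 0 library. In both panels the Efhd2f/f Vil1cre/+ libraries lie at the upper right, and Gm12346 stays between 1.05% and 1.39% of Hsp90aa1.

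Dnaja1 also overlaps other genes. The annotated span of Smu1, on the opposite strand, shares 608 bases with it, that of the antisense Gm6297 shares 249 bases, and the microRNA gene Mir207 lies inside it. None of these was listed. The library kit is not stated to mark strand, so reads in the shared bases cannot be assigned to one strand, and their part in the Dnaja1 value was not tested.

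Markers of other cell types, on lists written with earlier results of these data known, were compared in the same libraries. Listed genes of these cell types outside the lists were not counted, and they need not go the same way. Of 20 T and NK cell markers, 6 were listed, all lower in Efhd2f/f Vil1cre/+ IECs, beside 210 of all 309 listed genes. The summed normalized counts of these 6 were 1077 and 1277 in libraries 51 and 53 and 3250 and 1991 in libraries 50 and 52. The 5 with the largest differences were Xcl1 (log2 difference -1.60), Trdc (-1.22), Trac (-1.16), Nkg7 (-1.07) and Cd7 (-1.01). In bulk RNA, fewer cells of a type and less RNA per cell cannot be told apart. Of 11 B and plasma cell markers only Ighd was listed (-2.53, summed 11.2 and 9.24 against 78.5 and 51.3), and of 12 stromal and endothelial markers Dcn (-1.73) and Pecam1 (-1.13) were listed (summed 69 and 109.8 against 251.9 and 211.9). None of the listed markers was at 0 in all libraries of a genotype. The part of these cells in the difference of the members was not tested.

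Of 5 red blood cell markers, Alas2 was listed as higher (1.49), and of 18 neutrophil and macrophage markers 0 were listed. That 0 covers only these 18 genes and does not say that no gene of such cells was listed on day 0. Of 15 colon epithelial markers, Chga, of enteroendocrine cells, was listed as lower (-1.17, 1843 and 2363 normalized counts in libraries 51 and 53 against 5510 and 4024 in libraries 50 and 52). The other 14 epithelial markers have no values in the table, so the epithelial label could not be checked further with this list. Listed epithelial genes outside the list were not used for such a check.

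On day 7, 0 of the 6 members and 1 of the 135 other chaperone and heat-inducible genes were listed. The latter was Hmox1, the heme-degrading enzyme heme oxygenase 1, at 1143 and 789.8 normalized counts in the Efhd2f/f Vil1cre/+ libraries 65 and 71 and at 117.3 and 276.9 in the Efhd2f/f libraries 67 and 68. The table of day 7 holds values only for genes past its thresholds, so the levels of the members after DSS were not analysed here, and a difference between days could not be tested.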

How the data were processed

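RNA of colonic IECs was sequenced (NEBNext Ultra kit, NovaSeq). Per the labels, the submitters' processing notes name CASAVA 1.8, fastp, HISAT2 2.0.5, featureCounts 1.5.0-p3 and DESeq2 1.20.0, and the build GRCm38. The authors deposited a table per day with the signal of each library as a normalized count, scaled within that table, for genes past the thresholds of the authors on fold change (2-fold in either direction) and adjusted p-value. The deposited log2 fold changes and p-values were not used. The values did not resolve into whole reads, so no count model was run.

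Values under 1e-06 were set to 0 (25 on day 0). Log2(value + 1) was fitted by genotype over the 309 listed genes of day 0 with limma 3.58.1 (R 4.3.3). Only differences and moderated standard errors were kept. The differences were tested on simulated data without selection of genes, and the standard errors were not. With 2 libraries against 2, an exact two-sided permutation test cannot give a p below 0.333. Python 3.11.15 (pandas 2.3.3, numpy 2.4.6, matplotlib 3.10.9) and BLAST 2.17.0 did the rest. Pseudogene copies were sought in GENCODE mouse transcripts and promoter elements in RefSeq windows.

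The members and gene lists were chosen with earlier results of these data known. Named genes were the members, Efhd2, each listed gene of the chaperone lists, up to 5 per other list by size of difference, and the listed genes nearest in profile. Pseudogenes and overlapping genes came from searches of the annotation, and Gm3608 was named after its values were seen. Alternatives were the pseudocount, scaling, each library left out, a minimum mean of 50, a stricter threshold and stricter elements.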

Additional observations from a re-analysis of the deposited data

How the results depend on the processing

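The direction of all 6 members held under every alternative run, and both Efhd2f/f Vil1cre/+ libraries stayed above both Efhd2f/f libraries for 6 of 6. Leaving out a library or changing the pseudocount could not reverse it, because the genotypes did not overlap for any member. Rescaling could. Both knockout libraries lay above both control libraries for 81 of the 309 listed genes with equal sums and 103 with the median ratio, beside 99 as deposited. Scaling moved the size. With equal sums over the listed genes, every log2 difference shifted by about -0.61, to 1.49 for Hsp90aa1, 1.44 for Dnaja1, 1.34 for Dnajb1, 0.60 for Bag3, 0.54 for Chordc1 and 0.50 for Dnajb4, so the lower tier fell under a 2-fold difference. With the median ratio over the listed genes the shift was 1.12, to 3.22, 3.17, 3.07, 2.33, 2.27 and 2.23 in the same order. Both scalings rest on genes selected for differing, and the differences between members are the same under each. Leaving out each library in turn gave 1.91 to 2.30 for Hsp90aa1, 1.90 to 2.21 for Dnaja1, 1.46 to 2.45 for Dnajb1, 1.09 to 1.33 for Bag3, 0.95 to 1.35 for Chordc1 and 0.99 to 1.24 for Dnajb4. Pseudocounts of 0.1 and 10 moved no member by more than its spread between libraries. Listed genes higher in Efhd2f/f Vil1cre/+ IECs by over 2-fold numbered 98, and 37 with equal sums or 22 above a log2 difference of 2. Members with a promoter element numbered 4, and 1 with 3 units or 2 when only bases before the start were searched. The length used for levels per kb, the addition of the pseudogenes and the rescaled comparison of libraries within a genotype were chosen after seeing the data.

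No paired analysis was possible because the columns carry library numbers and no replicate numbers. A count model was not run, since whole reads could not be recovered. Depth is unknown, so counting error is not covered by any value.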
